A study of Mus musculus with 106 samples.

Results

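H3K27ac, the acetylation of histone H3 at lysine 27 found at active promoters and enhancers, was compared between hematopoietic stem cells (HSC) and bone marrow-derived macrophages (BMDM) of control mice. The comparison took the 6 control HSC lists and the 6 lists of unstimulated control BMDM, chosen by their sample titles, which are 12 of the 106 samples of the series and 12 of the 70 that have a list of ChIP-seq peaks. Both groups came from wild-type C57BL/6J mice aged 12 to 14 weeks that received no streptozotocin. HSC here are marrow cells from which a magnetic kit removed cells bearing CD3, CD4, B220, Ter119 or Gr1, so they are enriched stem and progenitor cells, not a purified stem cell. BMDM were grown from marrow for 7 days in 5 mmol/L glucose medium with 20% medium conditioned by L929 cells, and then kept for 16 h in medium alone. Stimulated BMDM, used below only to check labels, received 100 ng/mL lipopolysaccharide (LPS) and 10 ng/mL interferon gamma over those 16 h. The labels do not say that replicates came from separate mice, though the study's methods count n as individual animals. The p-values measure the spread between these samples, which may be partly technical.

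HSC and macrophages stand at the start and near the end of myeloid differentiation. Stem and progenitor identity is held by transcription factors that bind together at shared enhancers, among them Gata2, Tal1, Lyl1, Lmo2, Runx1, Erg and Fli1. Macrophage identity rests on PU.1, encoded by Spi1, with C/EBP, IRF, Maf and Mitf family factors, and on survival signals through the receptor Csf1r. Enhancers are marked by H3K27ac far from start sites and differ more between cell types than promoters do.

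Each list holds intervals called in one library, with no signal that can be set against another library. Each list was therefore cut to its 20000 strongest peaks by the deposited −log10 p. A library held a promoter when 1 of these peaks shared at least 1 bp with the window of 1000 bp to either side of any start site of the gene. The rank score of a promoter or region was the log2 of 20000 + 1 divided by the rank of its best peak, and 0 without a peak. A score difference of 1 thus stands for a factor of 2 in rank, and differences are given as HSC minus BMDM. A feature was called when limma, fitted over all features held by at least 3 of the 12 lists, gave a Benjamini-Hochberg adjusted p under 0.05. That filter admits a feature through the cell type where it ranks high, so medians over tested genes depend on it. Where one cell type held no peak among its 20000, its score was 0 by construction, and the size of that difference depends on where the lists were cut.

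HSC lists held 100045 to 139452 peaks and BMDM lists 54408 to 169361. The libraries labelled BMDM 5 and 6 went against their label: of 107 regions found in all 6 stimulated and none of the 5 unstimulated BMDM lists of diabetic mice, these libraries held 85 and 76, against 6 to 48 in BMDM libraries 1 to 4. Of the 39 regions with the reverse pattern they held 4 and 17, against 21 to 29. Control BMDM library 5 labelled as given LPS and interferon gamma held 22 of the 107 and 32 of the 39, and the other 5 such libraries held 76 to 105 and 5 to 14. Libraries were kept as labelled, and counts are also given without BMDM libraries 5 and 6.

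Peak number was 126994 ± 14420 (SD, n = 6) in HSC and 118042 ± 42662 (SD, n = 6) in BMDM, which did not differ beyond the spread between libraries (exact permutation test, two-sided, adjusted p = 0.710). Distal peaks made up 33.35% ± 2.42 (SD, n = 6) of the cut HSC lists and 36.15% ± 2.63 (SD, n = 6) of the cut BMDM lists (exact permutation p = 0.0801, adjusted p = 0.320). Covered length and median peak width did not pass the test either (exact permutation, adjusted p = 0.926 and 0.710).

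The defining markers fitted the labels in part. Kit, the stem cell factor receptor (chr5:75574916-75656722), ranked 15245, 8452, 7455, none, 11807 and 8404 in HSC libraries 1 to 6 and was held by no cut BMDM list (score difference 0.84 ± 0.21 SE, adjusted p = 0.00886). Gata2, a zinc finger factor of stem cells (chr6:88193891-88207032), ranked 11752, 8810, 5998, 17242, 9371 and 7668 in HSC, and 15558 and 16879 in BMDM libraries 4 and 5 alone (difference 0.96 ± 0.22 SE, adjusted p = 0.00485). Both genes stood higher in HSC, and for Gata2 the groups overlapped only through the lowest HSC library, number 4. Mpo, the myeloperoxidase gene of neutrophil precursors (chr11:87793581-87804413), was held by HSC libraries 2 and 6, at ranks 12958 and 13246, and by no BMDM list, too few lists to test.

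Csf1r, the receptor for the macrophage growth factor (chr18:61100598-61132149), ranked 2391, 11500, 9533, 18881, 17479 and none in BMDM, and 16326 in HSC library 2 alone. Its difference of −0.82 ± 0.40 SE did not pass the test (adjusted p = 0.172), and without BMDM libraries 5 and 6 it was −1.20 (adjusted p = 0.0417). Adgre1, which encodes a surface antigen of mature macrophages (chr17:57358691-57483527), was held by none of the 12 cut lists. The macrophage genes Msr1 and Lyz2 likewise had no peak in any cut BMDM list, and Mrc1 had 1, so promoter H3K27ac in the strongest 20000 peaks marks only part of the macrophage marker set.

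Summed over 9 stem and progenitor markers, the rank score ran from 4.27 to 9.42 in HSC and from 0.00 to 4.92 in BMDM, and BMDM library 4 lay above HSC library 4. Summed over 10 macrophage markers it ran from 0.00 to 0.85 in HSC and from 3.63 to 12.59 in BMDM, with no overlap. Of these markers, 4 of 9 were called for HSC and 4 of 10 for BMDM, beside 10.6% and 5.98% of all promoters. Mast cell, basophil and eosinophil markers were at 0 in all 12 libraries. The 5 erythroid markers summed to 2.27 to 6.81 in HSC and 0.94 to 2.14 in BMDM, so their sum was higher in HSC. Of the 5, 2 were called for HSC. Klf1 was held by all 12 lists and not called by limma (difference 0.53 ± 0.32 SE, adjusted p = 0.260). Alas2 was held by none of the cut lists and Gata1 by HSC libraries 1 and 5 alone. The part of remaining erythroid precursors in the HSC lists was not tested.

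At promoters, 14050 of 21938 protein-coding genes were held by at least 1 list and 8671 by all 12. Of 12688 promoters tested by rank, 2103 (16.6%) were called, 1344 higher in HSC (10.6%) and 759 higher in BMDM (5.98%). Many called promoters carried H3K27ac in both cell types: 616 of those called for HSC and 446 of those called for BMDM were held by all 12 lists, so the call rested on order within the list. The median difference over all tested promoters was 0.166. Scores centred on each library's mean, an alternative chosen after seeing the data, lowered that median to 0.041 and turned the split around, to 897 for HSC and 1005 for BMDM. The split was 954 and 770 when BMDM libraries 5 and 6 were left out. By occupancy, with Fisher's exact test over the 1155 promoters held by 5 to 7 lists, 73 (6.32%) were called for HSC and 25 (2.16%) for BMDM, and each called promoter was held by all 6 lists of one cell type and none of the other (adjusted p = 0.0255).

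**Figure D1:**
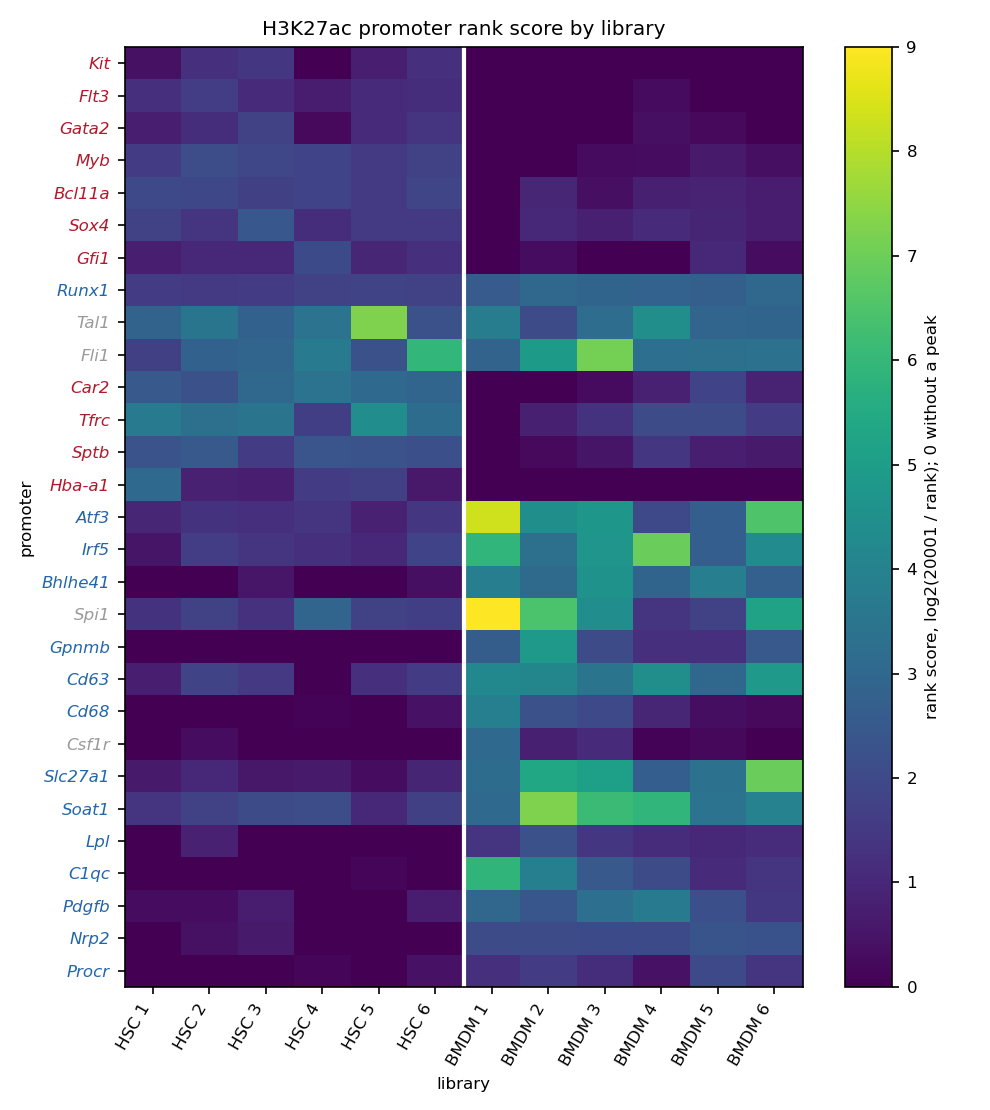
Rank score of 29 promoters in each library, with rows in the order of the gene groups and columns for HSC 1 to 6 and BMDM 1 to 6, on a colour scale from 0 (no peak among the top 20000) to 9. Gene names are red where called for HSC, blue where called for BMDM and grey where not called. Gpnmb is at 0 in all 6 HSC libraries and between ranks 697 and 8414 in BMDM, and Spi1 and Fli1 vary widely among BMDM libraries.

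Of the 7 genes of the heptad named above, 1 was called for HSC, Gata2, and 1 for BMDM, Runx1, beside 10.6% and 5.98% of all promoters. With lists cut to 10000, by exact permutation and ordered by fold, Gata2 was not called, and the list median of 0.01 changed sign under 8 of 24 settings. Runx1, a Runt domain factor (chr16:92601466-92826149), ranked 5548 to 6974 in HSC (median 6316.5) and 2429 to 3300 in BMDM (median 2735). The groups did not overlap, and the promoter stood higher in BMDM (difference −1.17 ± 0.29 SE, adjusted p = 0.00718). With lists as deposited or ordered by fold, the Runx1 call was lost. Tal1, a helix-loop-helix partner of the GATA factors, ranked 132 to 4251 in HSC and 921 to 4704 in BMDM (difference 0.44 ± 0.68 SE, adjusted p = 0.687). Fli1, an ETS factor, ranked 324 to 6109 in HSC and 145 to 2713 in BMDM (difference −0.93 ± 0.74 SE, adjusted p = 0.411).

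Among 24 other stem and progenitor factors, 20 were tested, 7 were called for HSC and none for BMDM, with a list median of 0.56 beside 0.166 over all promoters and 10.6% of them called for HSC. The count for HSC was 4 without BMDM library 3, 4 with centred scores, 3 by exact permutation, 3 of 15 with lists cut to 10000 and 2 of 19 ordered by fold. Myb, a regulator of progenitor growth (chr10:21124935-21160984), ranked 4593 to 6993 in all 6 HSC lists, while BMDM libraries 1 and 2 held none and the rest ranked 12665 to 16835 (difference 1.51 ± 0.22 SE, adjusted p = 9.36e-05). Bcl11a, a zinc finger repressor, ranked 5055 to 7012 in HSC and 10293 to 15337 in the 5 BMDM lists that held it (difference 1.18 ± 0.23 SE, adjusted p = 0.00130). Neither gene's groups overlapped. Gfi1, a repressor that restrains stem cell cycling, differed by 0.90 ± 0.24 SE (adjusted p = 0.0129), and Sox4 by 0.88 ± 0.26 SE (adjusted p = 0.0207). Etv6 differed by −1.28 ± 0.53 SE (adjusted p = 0.0987) and Ikzf1, the Ikaros gene, by 0.88 ± 0.37 SE (adjusted p = 0.105). When BMDM libraries 5 and 6 were left out, 5 of the 20 were called for HSC and 2, Etv6 and Hhex, for BMDM.

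Of 16 genes for surface proteins of stem and progenitor cells, 9 were tested (median 0.38, and 0.06 over all 16). Of the 9, 2 were called each way, beside 10.6% of all promoters for HSC and 5.98% for BMDM. Ordered by fold, 1 was called for HSC and none for BMDM. With lists cut to 10000, none of 6 was called for HSC and 1 for BMDM. With lists as deposited, 5 of 16 were called for HSC and none for BMDM. Flt3, a cytokine receptor of multipotent progenitors, ranked 6388 to 12054 in HSC and was held by BMDM library 4 alone (difference 1.12 ± 0.19 SE, adjusted p = 3.80e-04). Procr, the endothelial protein C receptor used to sort stem cells, was held by all 6 BMDM lists, at ranks 5081 to 14592, and by HSC libraries 4 and 6, at 18183 and 14744 (difference −1.19 ± 0.23 SE, adjusted p = 0.00111). Cd93 also stood higher in BMDM (difference −1.08 ± 0.28 SE, adjusted p = 0.0114). Cd93 is also known from other myeloid cells, and the direction of both genes goes against the list's name. Cxcr4, the receptor that holds progenitors in marrow, differed by 0.45 ± 0.56 SE (adjusted p = 0.620), and by −0.08 without BMDM libraries 5 and 6.

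Erythroid promoters were called for HSC alone. Of 20 genes, 16 were tested, 11 were called for HSC and none for BMDM, with a median of 0.73, beside 10.6% of all promoters called for HSC. Car2, the carbonic anhydrase of red cells (chr3:14886273-14900770), ranked 1861 to 4263 in HSC, while BMDM libraries 1 and 2 held none and the rest ranked 5662 to 16547 (difference 2.23 ± 0.32 SE, adjusted p = 9.14e-05). Tfrc, the transferrin receptor that takes up iron, ranked 948 to 6286 in HSC and 4778 to 11626 in 5 BMDM lists (difference 1.99 ± 0.43 SE, adjusted p = 0.00290). Sptb, which encodes red cell spectrin, differed by 1.61 ± 0.26 SE (adjusted p = 2.75e-04). Hba-a1, an alpha globin gene (chr11:32283511-32284465), ranked 2367 to 12973 in HSC and was held by no BMDM list (difference 1.44 ± 0.30 SE, adjusted p = 0.00262), but its near-identical copy Hba-a2 was called as well and reads may be shared between them. Ank1 differed by −0.80 ± 0.40 SE (adjusted p = 0.178) and Epb42 by 0.58 ± 0.22 SE (adjusted p = 0.0700). The count for HSC was 8 of 16 without BMDM libraries 5 and 6, 6 by exact permutation, 3 of 11 with lists cut to 10000 and 4 of 17 with peaks ordered by fold. None was called for BMDM under any setting tried.

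Of 8 megakaryocyte genes tested, 3 were called for HSC and none for BMDM, beside 10.6% of all promoters for HSC. By exact permutation 1 of 8 was called, and ordered by fold none of 7. Leaving out HSC library 5, HSC library 6 or BMDM library 6 gave 2. Nfe2, a factor of the megakaryocyte and erythroid lineages, ranked 833 to 5731 in HSC and 6431 to 13673 in BMDM (difference 1.61 ± 0.38 SE, adjusted p = 0.00614). F2r, a thrombin receptor, differed by 0.95 ± 0.28 SE (adjusted p = 0.0240) and Rab27b by 0.90 ± 0.20 SE (adjusted p = 0.00347). Pf4, the platelet factor 4 chemokine, differed by −0.78 ± 0.55 SE (adjusted p = 0.360). None of 4 neutrophil granule genes, 6 lymphoid genes and 3 stromal or endothelial genes tested was called by limma. At an unadjusted p under 0.05, 1 granule and 1 stromal gene ranked higher in BMDM and 3 lymphoid genes higher in HSC, and the exact permutation test called 1 lymphoid gene. Many members were in no cut list, namely 12 of 22 lymphoid, 7 of 18 granule and 10 of 10 mast cell, basophil and eosinophil genes. Of 6 dendritic genes tested, Zbtb46 (1.29 ± 0.26 SE, adjusted p = 0.00169) and Ccr9 (1.28 ± 0.26 SE, adjusted p = 0.00167) stood higher in HSC and Batf3 (−0.74 ± 0.25 SE, adjusted p = 0.0477) in BMDM. The Ccr9 window is shared with Slc6a20a, and the call for Batf3 was lost without BMDM libraries 5 and 6 (adjusted p = 0.163) and in 10 of 12 settings with 1 library left out.

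**Figure D2:**
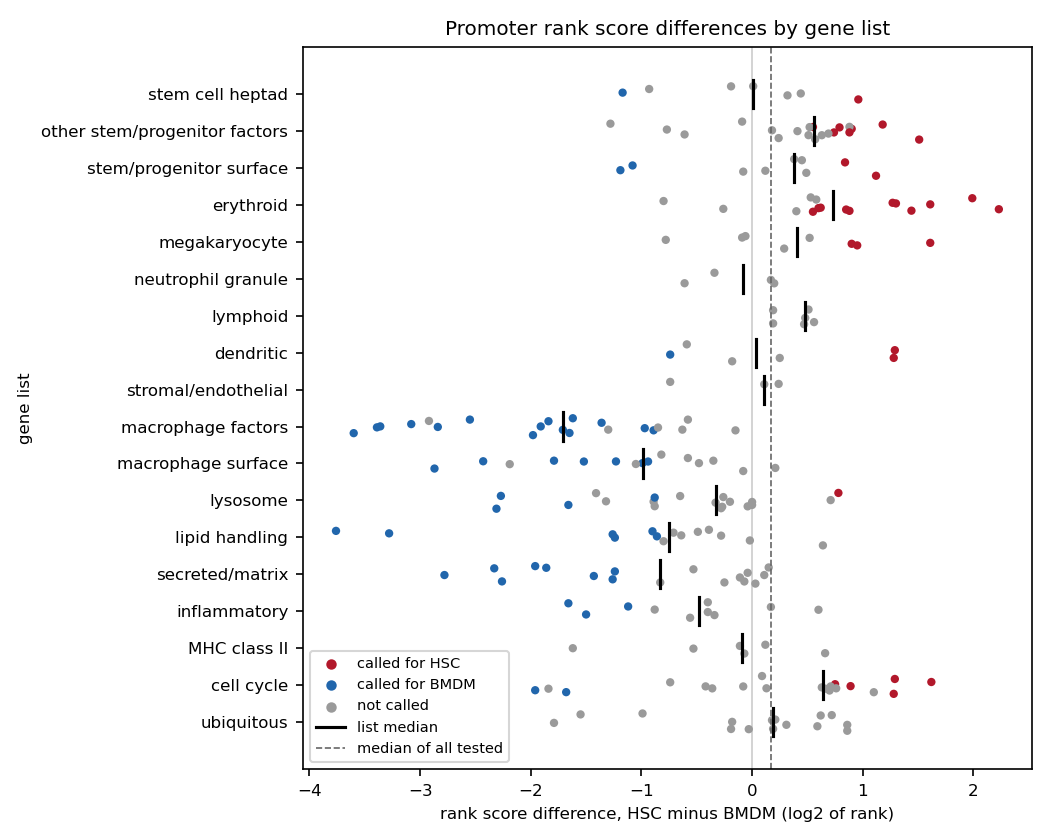
Rank score difference, HSC minus BMDM, of every tested promoter in 18 gene lists, 1 point per gene, with points to the right of 0 ranking higher in HSC. Red points were called for HSC, blue points for BMDM and grey points not called, black bars are list medians and the dashed line is the median of all tested promoters, 0.166. The macrophage factor list lies farthest left (median −1.71) and the erythroid list farthest right (median 0.73).

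Macrophage transcription factors had the lowest median of the lists. Of 21 tested, 15 were called for BMDM and none for HSC, with a median of −1.71, beside 5.98% of all promoters called for BMDM. The count was 17 without BMDM libraries 5 and 6, 15 by exact permutation, 10 with lists as deposited and 8 ordered by fold. Atf3, a stress-induced bZIP factor (chr1:191170296-191218039), ranked 61 to 5061 in BMDM and 7391 to 11363 in HSC (difference −3.60 ± 0.77 SE, adjusted p = 0.00338). Irf5, an interferon regulatory factor of macrophage activation, ranked 164 to 3066 in BMDM and 5666 to 14206 in HSC (difference −3.39 ± 0.57 SE, adjusted p = 3.76e-04). Bhlhe41, a repressor found in tissue macrophages, ranked 823 to 2918 in all 6 BMDM lists and was held by HSC libraries 3 and 6 at 13598 and 15542 (difference −3.36 ± 0.31 SE, adjusted p = 4.94e-07). None of these groups overlapped. Spi1, the PU.1 gene, reached rank 37 in BMDM library 1 but ranked 7850 and 5834 in BMDM libraries 4 and 5 against 2613 to 8289 in HSC. Its difference of −2.92 ± 1.01 SE missed the threshold (adjusted p = 0.0587) and passed it without BMDM libraries 5 and 6 (−3.54, adjusted p = 0.0378). Nr4a1 differed by −1.30 ± 0.48 SE (adjusted p = 0.0679).

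Of 29 macrophage surface genes, 15 were tested and 10 were in no cut list. The median was −0.99 over the 15 and −0.08 over all 29. Of the 15, 7 were called for BMDM and none for HSC, beside 5.98% of all promoters for BMDM. By exact permutation 3 of 15 were called, with lists cut to 10000 4 of 11, and ordered by fold 2 of 14. Cd63, a tetraspanin of late endosomes, ranked 698 to 2445 in BMDM and 5581 to 19704 in HSC (difference −2.87 ± 0.40 SE, adjusted p = 9.14e-05). Gpnmb, a glycoprotein of lipid-laden macrophages, ranked 697 to 8414 in BMDM and was held by no HSC list (difference −2.43 ± 0.43 SE, adjusted p = 8.32e-04). Sirpa, the receptor for CD47, differed by −1.79 ± 0.39 SE (adjusted p = 0.00307) and Cd68 by −1.52 ± 0.47 SE (adjusted p = 0.0365). Cd14, the LPS co-receptor, ranked 44 in BMDM library 1 and 15365 in BMDM library 5, and its difference of −2.19 ± 1.23 SE did not pass (adjusted p = 0.253). Csf2ra, part of the GM-CSF receptor, differed by −1.05 ± 0.55 SE (adjusted p = 0.195).

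Genes of macrophage function were called for BMDM as well. In the lipid list 6 of 14 tested were called for BMDM and none for HSC (median −0.76), beside 5.98% and 10.6% of all promoters. The count for BMDM was 5 by exact permutation, 4 with lists as deposited, 4 ordered by fold and 4 of 12 with lists cut to 10000. Slc27a1, a fatty acid transporter, ranked 162 to 3106 in BMDM and 10090 to 16306 in HSC (difference −3.76 ± 0.54 SE, adjusted p = 1.04e-04). Soat1, which esterifies cholesterol for storage, ranked 130 to 2388 in BMDM and 4602 to 9967 in HSC (difference −3.28 ± 0.62 SE, adjusted p = 9.74e-04). The groups of both genes lay apart. Lpl, lipoprotein lipase, differed by −1.26 ± 0.24 SE (adjusted p = 9.64e-04) and Fabp5, a fatty acid binding protein, by −1.24 ± 0.26 SE (adjusted p = 0.00262). Acsl1 and Scarb1 differed by −0.80 ± 0.43 SE (adjusted p = 0.208) and −0.71 ± 0.30 SE (adjusted p = 0.106).

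Of 23 complement, matrix and secreted genes, 17 were tested (median −0.83, and −0.16 over all 23). Of the 17, 8 were called for BMDM and none for HSC. Over all promoters the shares were 5.98% and 10.6%. The count for BMDM was 7 by exact permutation, 7 ordered by fold, 6 of 10 with lists cut to 10000 and 11 of 22 with lists as deposited. C1qc, a chain of complement C1q, ranked 339 to 9181 in BMDM and was held by HSC library 5 alone, at 17942 (difference −2.78 ± 0.65 SE, adjusted p = 0.0116). Pdgfb, a growth factor for mesenchymal cells, differed by −2.33 ± 0.31 SE (adjusted p = 7.37e-05). The semaphorin receptors Nrp1 and Nrp2 differed by −2.26 ± 0.28 SE and −1.96 ± 0.22 SE (adjusted p = 2.74e-05 and 7.85e-06). All 6 BMDM lists held Nrp2 at ranks 3932 to 4966, a narrow spread. C1qb and Timp2 differed by −0.53 ± 0.24 SE (adjusted p = 0.139) and −0.83 ± 0.34 SE (adjusted p = 0.0938).

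In the lysosome list 4 of 19 tested were called for BMDM and 1 for HSC (median −0.33), beside 5.98% and 10.6% of all promoters. The count for BMDM was 2 by exact permutation, with lists cut to 10000 and without HSC library 1, 5 or 6 or BMDM library 6, and the HSC call was lost without HSC library 4 or 5 or BMDM library 1 or 5. Ctsz, a cathepsin, ranked 78 to 3075 in BMDM and 4568 to 7754 in HSC (difference −2.31 ± 0.65 SE, adjusted p = 0.0168). Lamp1, the main lysosomal membrane protein, differed by −2.27 ± 0.70 SE (adjusted p = 0.0280) and Lgmn by −0.88 ± 0.22 SE (adjusted p = 0.00891). Acp5, tartrate-resistant acid phosphatase, stood higher in HSC, at ranks 4667 to 8980 against 10014 to 15353 in 5 BMDM lists (difference 0.78 ± 0.24 SE, adjusted p = 0.0298). Leaving out BMDM libraries 5 and 6 ended the calls for Acp5 and Lamp1 (adjusted p = 0.0871 and 0.0763). With lists as deposited or ordered by fold, none of the lysosomal promoters was called.

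Genes induced by LPS and interferon gamma gave 3 calls for BMDM of 10 tested, beside 5.98% of all promoters. None was called without HSC library 1, HSC library 5 or BMDM library 6, by exact permutation or ordered by fold, and the reason was not tested. Irf1, a transcription factor of interferon responses, differed by −1.66 ± 0.49 SE (adjusted p = 0.0239), with a window shared with Gm17334. Ptgs2, the inducible cyclooxygenase, differed by −1.12 ± 0.34 SE (adjusted p = 0.0237) and Socs1, an inhibitor of cytokine signalling, by −1.50 ± 0.52 SE, just under the threshold. That call was lost without BMDM libraries 5 and 6 (−0.80, adjusted p = 0.150). Irf7 differed by 0.60 ± 0.27 SE (adjusted p = 0.138) and Socs3 by −0.88 ± 0.37 SE (adjusted p = 0.108). None of 6 class II antigen presentation genes was called by limma, while 2 ranked higher in BMDM at an unadjusted p under 0.05 and the exact permutation test called 1. H2-DMa, whose window is shared with Brd2, differed by −1.62 ± 0.69 SE (adjusted p = 0.113) and H2-Ab1 by 0.66 ± 0.36 SE (adjusted p = 0.215).

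Of 20 cell cycle genes tested, 5 were called for HSC and 2 for BMDM, beside 10.6% and 5.98% of all promoters, with a median of 0.64. Ordered by fold, 1 was called each way. Mki67, the proliferation antigen, ranked 493 to 2965 in HSC and 4182 to 6496 in BMDM (difference 1.62 ± 0.44 SE, adjusted p = 0.0147). Ccna2, an S and G2 phase cyclin, differed by 1.29 ± 0.30 SE (adjusted p = 0.00544), Ccnd3 by 1.28 ± 0.25 SE (adjusted p = 0.00122) and Mcm5, a helicase subunit of DNA replication, by 0.89 ± 0.25 SE (adjusted p = 0.0163). Cdk6 and Ccnd1 stood higher in BMDM, by −1.96 ± 0.51 SE and −1.68 ± 0.33 SE (adjusted p = 0.0109 and 0.00128). Cdkn1a, the p21 inhibitor, differed by −1.84 ± 0.74 SE (adjusted p = 0.0920). With BMDM libraries 5 and 6 left out, 3 were called for each cell type. Of 15 genes that nearly every cell uses, limma called none (median 0.19), with 1 in each direction at an unadjusted p under 0.05 and none by exact permutation, the most distant being Eef1a1 at −1.79 ± 0.85 SE (adjusted p = 0.151) and Rplp0 at −1.55 ± 0.84 SE (adjusted p = 0.211).

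Promoters held by all 6 lists of one cell type and none of the other were taken from all genes by the size of their difference. Higher in HSC were Nhlrc4, Nedd4, Pdlim1, Cd55, Pygm, Enpp5 and Hnrnpa1, besides Hba-a1. Nhlrc4 (chr17:25942233-25944961) ranked 969 to 18020 in HSC (difference 2.97 ± 0.51 SE, adjusted p = 9.63e-04), with a window shared with Pigq. Nedd4, a ubiquitin ligase, ranked 1768 to 10850 (difference 2.15 ± 0.30 SE, adjusted p = 9.14e-05). Pdlim1, a cytoskeletal LIM protein, ranked 3865 to 7122 (difference 1.93 ± 0.22 SE, adjusted p = 7.85e-06). Cd55, which protects cells from complement, differed by 1.63 ± 0.23 SE (adjusted p = 9.14e-05). Pygm, Enpp5 and Hnrnpa1, whose window is shared with Cbx5, differed by 1.60, 1.52 and 1.49. These promoters were chosen among those called by both tests. Their absence from BMDM lists and their adjusted p under 0.05 were fixed by that choice.

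Higher in BMDM were Pmp22, Lrp1, Adra1a, Plxna2, Pid1 and Ssc5d, besides Gpnmb. Pmp22, a myelin membrane protein (chr11:63128982-63159547), ranked 616 to 3395 in BMDM (difference −3.91 ± 0.35 SE, adjusted p = 4.94e-07). Lrp1, an endocytic receptor for lipoproteins and apoptotic cells, ranked 862 to 9236 (difference −2.29 ± 0.41 SE, adjusted p = 8.80e-04). Adra1a, an adrenergic receptor gene, ranked 2808 to 10286 (difference −2.06 ± 0.26 SE, adjusted p = 2.94e-05). Plxna2, Pid1 and Ssc5d differed by −1.77, −1.70 and −1.66. The same choice fixed that no HSC list held these promoters.

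Distal regions were top peaks more than 1000 bp from every annotated start site, merged over the 12 lists and kept when found in at least 2. There were 15098, of which 481 were held by all 12 lists. By rank, 1183 of 10035 tested (11.8%) were called, 429 for HSC (4.28%) and 754 for BMDM (7.51%). By occupancy, 578 of 3152 testable regions (18.3%) were called for HSC and 696 (22.1%) for BMDM, and 185 and 222 of them were held by all 6 lists of one cell type and none of the other. Scores centred on each library's mean turned the split by rank to 873 for HSC and 648 for BMDM. It was 260 and 955 without BMDM libraries 5 and 6. The number called also followed list length: 29 with lists cut to 10000 and 3492 with lists cut to 40000.

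The distal regions with the largest complete separation are shown by the sequence around the strongest summit that lay inside the region, together with an intronic Runx1 region chosen after its values were seen. Each is 300 bases of the plus strand of GRCm38, with capitals marking matches to any of the 13 motifs searched. Gramd4 holds the RUNX motif TGTGGT, the GATA motif AGATAA and the AP1 motif TGANTCA. Pxt1 and Acta1 hold the E-box CAGCTG, and Runx1 holds the MAF motif TGCTGAC. Ahnak2 holds none of the 13. The Gramd4 stretch is centred on a summit from HSC library 1 at rank 11388, because the higher-ranked peaks over that region had their summits outside it. No stretch overlaps an annotated exon. A match is a description of letters and not a bound site.
Gramd4, chr15:86061398-86061697: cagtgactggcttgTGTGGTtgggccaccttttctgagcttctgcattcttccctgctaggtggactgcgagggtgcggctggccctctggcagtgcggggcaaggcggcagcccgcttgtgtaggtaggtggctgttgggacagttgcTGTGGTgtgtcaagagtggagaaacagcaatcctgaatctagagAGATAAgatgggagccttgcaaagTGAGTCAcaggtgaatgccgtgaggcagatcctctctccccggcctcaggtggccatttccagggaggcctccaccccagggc
Pxt1, chr17:28930694-28930993: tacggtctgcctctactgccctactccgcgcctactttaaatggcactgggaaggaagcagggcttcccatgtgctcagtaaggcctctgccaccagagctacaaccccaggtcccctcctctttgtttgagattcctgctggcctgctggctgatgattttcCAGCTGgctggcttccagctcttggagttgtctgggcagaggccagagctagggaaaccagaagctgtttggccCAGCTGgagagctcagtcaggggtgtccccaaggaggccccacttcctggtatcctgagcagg
Runx1, chr16:92801353-92801652: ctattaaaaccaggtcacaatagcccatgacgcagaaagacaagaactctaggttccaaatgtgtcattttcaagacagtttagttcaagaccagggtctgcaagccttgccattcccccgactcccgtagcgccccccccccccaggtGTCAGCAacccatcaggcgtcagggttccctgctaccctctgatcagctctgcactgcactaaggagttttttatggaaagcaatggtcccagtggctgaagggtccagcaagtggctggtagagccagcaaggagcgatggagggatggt
Acta1, chr8:123883180-123883479: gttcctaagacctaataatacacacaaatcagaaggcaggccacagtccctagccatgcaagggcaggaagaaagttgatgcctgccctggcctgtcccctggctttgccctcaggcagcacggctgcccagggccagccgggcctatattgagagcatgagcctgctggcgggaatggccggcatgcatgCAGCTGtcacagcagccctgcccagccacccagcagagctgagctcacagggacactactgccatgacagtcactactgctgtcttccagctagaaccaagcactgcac
Ahnak2, chr12:112795422-112795721: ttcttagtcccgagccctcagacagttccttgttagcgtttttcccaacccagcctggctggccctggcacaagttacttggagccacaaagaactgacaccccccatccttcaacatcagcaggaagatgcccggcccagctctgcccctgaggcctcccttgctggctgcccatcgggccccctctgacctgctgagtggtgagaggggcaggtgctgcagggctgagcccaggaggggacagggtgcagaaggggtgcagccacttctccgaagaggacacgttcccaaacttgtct

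Higher in HSC, the region nearest to Pxt1 (chr17:28928010-28932261, intergenic, 10003 bp from the start site) ranked 3485 to 8095 in the 6 HSC lists and was held by no BMDM list (difference 1.79 ± 0.29 SE, adjusted p = 6.21e-05). The intronic region of Gramd4 (chr15:86060471-86062094) ranked 577 to 13888 (difference 2.39 ± 0.65 SE, adjusted p = 0.0319), and without BMDM libraries 5 and 6 its adjusted p was 0.0637. Only 3 of its 6 HSC peaks were themselves distal, the others reaching into a promoter. The same held for regions near Orai3, Sppl2b, Bcor and Zfpm1, with 2, 3, 4 and 4 distal peaks of 6. Regions near Lrrk1 (difference 1.68 ± 0.29 SE, adjusted p = 1.48e-04) and Ywhaz (1.38 ± 0.26 SE, adjusted p = 3.13e-04) lay 64217 and 64375 bp from the nearest start site.

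Higher in BMDM, the region nearest to Acta1 (chr8:123879452-123883807, in an intron, 10944 bp from the Acta1 start site) ranked 185 to 4735 in the 6 BMDM lists and was held by no HSC list (difference −3.71 ± 0.55 SE, adjusted p = 5.98e-05). An intronic region near Ahnak2 (chr12:112792502-112799589) ranked 1047 to 6703 (difference −2.69 ± 0.40 SE, adjusted p = 3.10e-05). Regions near 1190005I06Rik, Evl, Apbb2, Rbbp8, Stum and Lrp1 differed by −2.46 to −2.15, and 3 of the 6 BMDM peaks over the Lrp1 region were themselves distal. The choice of these regions fixed that the groups lie apart, and the spread among BMDM libraries was wide (SD 0.75 to 1.76).

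**Figure D3:**
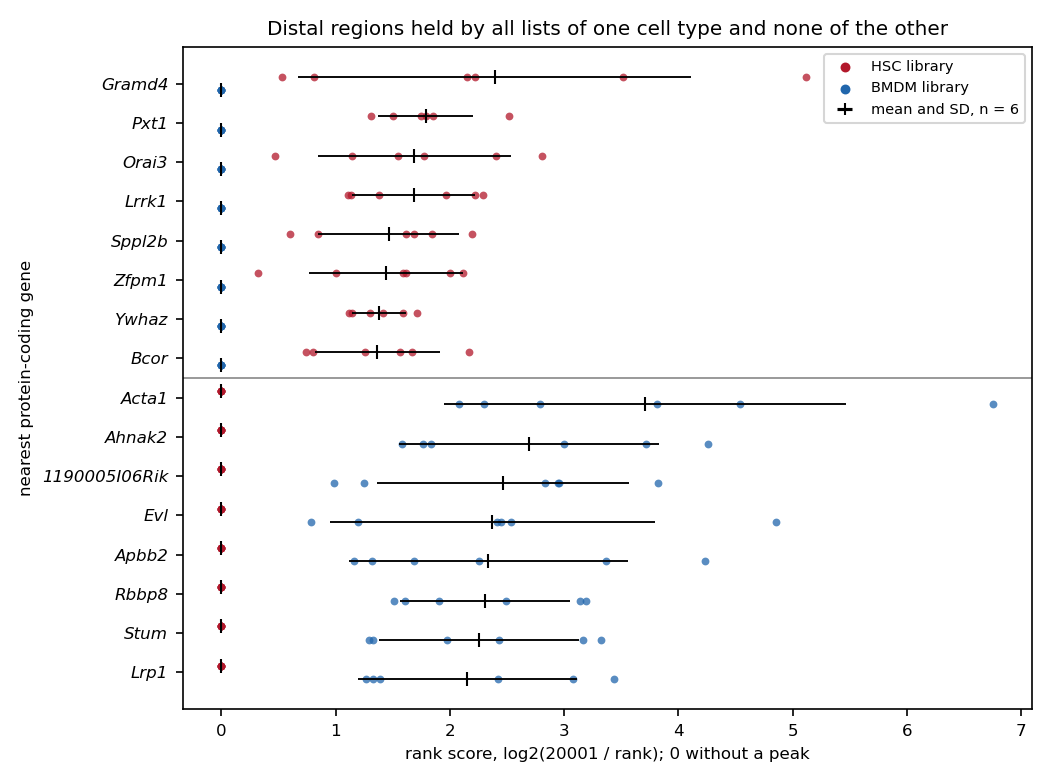
Rank score of the 16 distal regions with the largest difference among those held by all 6 lists of one cell type and none of the other, named by the nearest protein-coding gene. Red points are HSC libraries, blue points BMDM libraries, and bars are the mean and SD (n = 6). Regions above the line score 0 in BMDM and those below it 0 in HSC, with the Acta1 region reaching the highest mean, 3.71.

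Regions near stem cell factor genes were taken from the same lists. Within Runx1, the intronic region chr16:92801005-92803578, 22200 bp from a start site, ranked 8202 to 15197 in all 6 HSC lists and was held by BMDM libraries 1 and 2 at 19507 and 11170 (difference 0.80 ± 0.25 SE, adjusted p = 0.0305). That call was lost without BMDM libraries 5 and 6 (0.73, adjusted p = 0.0789). The intronic regions chr16:92673242-92677973 and chr16:92619963-92624622 stood higher in BMDM, by −0.82 ± 0.23 SE and −0.86 ± 0.26 SE (adjusted p = 0.0159 and 0.0241), as the promoter did.

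Of 48 tested regions nearest to heptad genes, 3 were called for HSC and 2 for BMDM, shares near the 4.28% and 7.51% of all tested regions, and without BMDM libraries 5 and 6 the counts were 1 and 2. Besides Runx1, the calls were for Lmo2, a bridging protein of the complex, at chr2:103893796-103897741 (0.83 ± 0.24 SE, adjusted p = 0.0172) and chr2:103945313-103946042 (0.60 ± 0.20 SE, adjusted p = 0.0423). Zfpm1, which encodes the GATA partner FOG1, had 1 intronic region higher in HSC, chr8:122285885-122289662 (1.44 ± 0.28 SE, adjusted p = 6.33e-04), and was the nearest gene to 3 regions higher in BMDM, 50306 to 128511 bp from its start site, each held by all 6 BMDM lists and no HSC list (−1.18, −0.78 and −0.90). Gfi1b, an erythroid and megakaryocytic repressor, had a region at chr2:28600197-28603829 that 6 HSC lists and 1 BMDM list held (1.84 ± 0.30 SE, adjusted p = 6.12e-05). Single regions near Ldb1, Prdm16 and Cbfa2t3 were called for HSC as well. The Ldb1 region lay 1066 bp from a start site, and only 2 of its 6 HSC peaks were themselves distal. Of 55 tested regions nearest to the other stem and progenitor factors, 5 were called for HSC and 3 for BMDM, beside 4.28% and 7.51%.

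Of 75 tested regions nearest to macrophage factors, 13 were called for BMDM and 1 for HSC (18 and 1 without BMDM libraries 5 and 6), beside 7.51% and 4.28% of all tested regions. The exception lay 2606 bp from a Spi1 start site at chr2:91077675-91079784, ranked 5147 to 10542 in HSC and 12392 to 19827 in 5 BMDM lists (1.12 ± 0.30 SE, adjusted p = 0.00879), opposite in sign to the Spi1 promoter value. Among the 13 were 4 regions near Id3, 3 near Tfeb, a lysosomal regulator, 2 near Klf4, and 1 each near Atf3, Irf8 and Pparg. The 3 Tfeb regions are not separate, since peaks that bridge them count more than once, and only 3, 1 and 2 of their 6 BMDM peaks were distal. In the secreted and matrix list 11 of 32 tested regions were called for BMDM and none for HSC, among them regions near Mmp14 (−2.30 ± 0.46 SE, adjusted p = 0.00186) and Timp2 (−2.24 ± 0.44 SE, adjusted p = 5.91e-04), whose promoters were not called. In the lysosome list 7 of 36 were called for BMDM and none for HSC, led by Ctsb (−2.15 ± 0.39 SE, adjusted p = 2.28e-04).

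Some genes gathered several called regions, a pattern chosen after the values were seen. For HSC these were Cd47, the ligand of Sirpa, with 6 of 11 tested regions, Gse1 with 5 of 29 and Cxxc5 with 4 of 8. Of all tested regions, 4.28% were called for HSC and 7.51% for BMDM. A peak that reaches a start site can bridge neighbouring regions, so regions of the same gene may not be separate. Gse1 also had 1 region called for BMDM, and its promoter was not called (difference −0.38). For BMDM Lrp1 led with 8 of 13 (differences −2.15 to −0.83), followed by Tmem189 with 7 of 18 and Pkd1l2 with 6 of 6. A further group near Ezh2 (6 of 9) and Pdia4 (5 of 8) held the largest distal difference, −6.00 at chr6:47752106-47754665 (adjusted p = 0.00727), where BMDM ranked 5 to 379 and HSC 327 to 6945. These regions repeat at a median of 4306 and 4388 bp from start to start, and a median of 98.2% and 92.2% of the 50-base words of a region also occur in another region of the same group, against 0 for Lrp1 and Cd47. Reads from such copies cannot be placed with certainty, so these regions are uncertain.

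The promoters of the nearest genes were set beside the called regions. The 429 HSC regions had 362 nearest genes, of which 65 had a promoter called for HSC and 15 one called for BMDM. The 754 BMDM regions had 566 nearest genes, of which 11 had a promoter called for HSC and 176 one called for BMDM. Over all 4669 nearest genes of tested regions the counts were 366 and 464, or 7.84% and 9.94%, against 4.14% BMDM calls near HSC regions and 31.1% near BMDM regions. A peak that bridges a region and a promoter counts in both, so these shares are not independent. By position, the region's centre lay in an exon in 5.59% of HSC regions and 11.1% of BMDM regions, beside 9.96% of all tested, and in an intron in 50.1%, 51.2% and 51.1%.

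The sequence under the called regions was read for motifs of known factors. Windows of 600 bp were searched on both strands for 13 motifs, whose matches may overlap. The GATA motif AGATAA was in 25.9% of HSC regions, 18.4% of BMDM regions and 19.6% of all 15098. The AP1 motif TGANTCA was in 15.2%, 19.8% and 15.7%, and the RUNX motif TGTGGT in 37.1%, 39.7% and 38.3%. Median GC content was 52.5%, 53.8% and 52.7%. In the lowest and highest of 3 classes of GC content, the GATA share of HSC regions was 33.9% and 19.2%, beside 27.2% and 11.3% of all regions. The AP1 share of BMDM regions was 22.4% and 17.8% there, beside 17.7% and 12.4%. The PU.1 motif GAGGAAGT was in 7.23% of HSC and 4.38% of BMDM regions, the MAF motif in 14.0% and 10.3%, and the E-box in 40.1% and 39.8%. Over all regions these 3 motifs were in 5.61%, 11.7% and 38.6%. These shares carry no test.

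**Figure D4:**
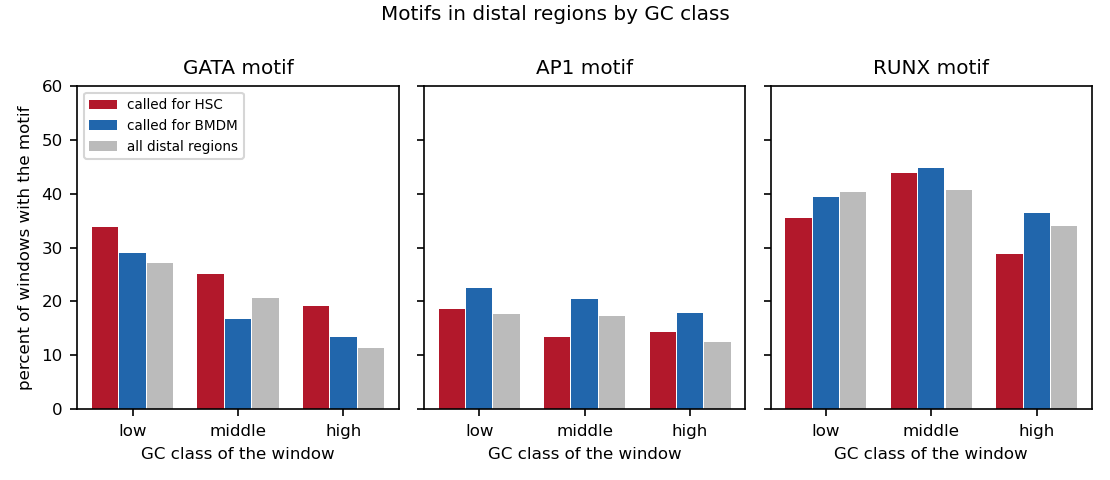
Percent of 600 bp windows that hold the GATA, AP1 or RUNX motif, for distal regions called for HSC (red), called for BMDM (blue) and all 15098 regions (grey), in 3 classes of GC content split at 50.7% and 54.8%. The GATA share is highest in HSC regions and the AP1 share highest in BMDM regions in each class, while the RUNX bars change order between classes.

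The calls were then read in libraries that took no part in them. In H3K27ac lists of diabetic mice (6 HSC and 5 unstimulated BMDM), 1325 of the 1344 promoters called for HSC had the higher mean score in HSC (98.6%, against 59.9% of all tested promoters), and 752 of the 759 called for BMDM had the higher mean in BMDM (99.1%, against 39.8%). For distal regions, 429 of 429 and 752 of 754 kept their direction, against 45.0% and 47.9% of all tested. A stricter reading, every library of one cell type above every library of the other, was met by 36.2% of HSC promoters and 49.5% of BMDM promoters, beside 6.52% and 4.81% of all tested. Of the 185 regions held by all 6 HSC lists and no BMDM list, a mean of 5.14 of 6 diabetic HSC lists and 0.32 of 5 diabetic BMDM lists held them.

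H3K4me3, a mark of active and poised start sites, was read at the same promoters. In the control lists of the same cells, 57.4% of promoters called for HSC by H3K27ac had the higher H3K4me3 score in HSC, beside 43.1% of all tested, and 68.0% of those called for BMDM had the higher score in BMDM, beside 54.7%. Non-overlapping H3K4me3 groups in the same direction were found for 2.23% and 2.77% of them, beside 0.930% and 1.13% of all tested.

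**Figure D5:**
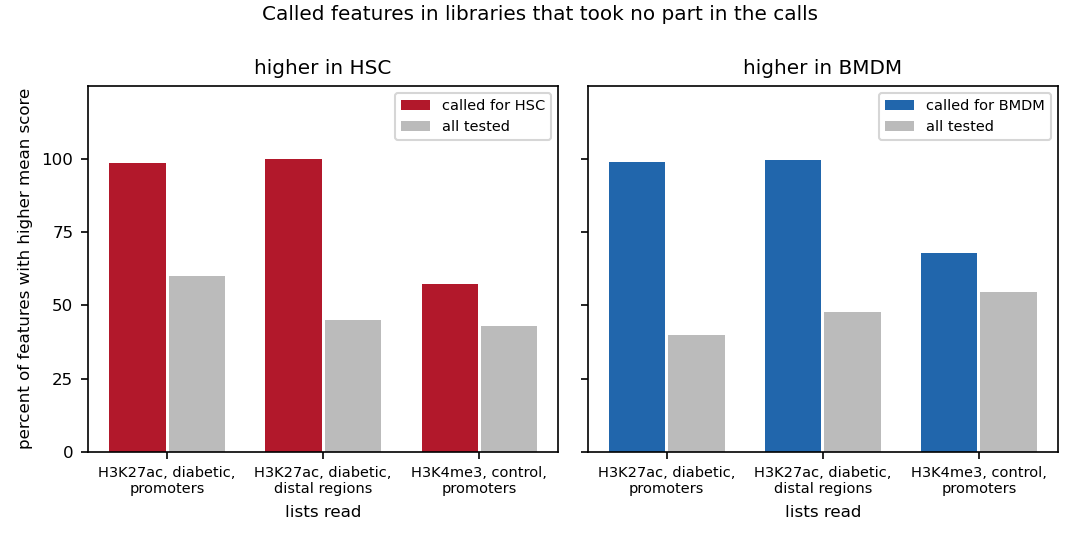
Percent of promoters or distal regions with the higher mean rank score in HSC (left) or BMDM (right), in H3K27ac lists of diabetic mice and H3K4me3 lists of control mice. Coloured bars are features called by H3K27ac in control mice and grey bars all tested features, with coloured bars at 98.6% to 100% for H3K27ac and 57.4% and 68.0% for H3K4me3.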

How the data were processed

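ChIP-seq for H3K27ac and H3K4me3 was read as 1 narrowPeak list per library, called against the input of the same replicate, without pooling. The submitters' processing notes name GRCm38 and mm10 and, among the tools, Bowtie2 2.2.6 and MACS2 2.2.7.1. The deposited −log10 p and −log10 q are MACS2's significance values, and the deposited ratio is its fold enrichment at the summit. Without read totals the depth is unknown and no counting interval is given, which is why rank within a list replaced signal. Of the lists, 47 were used here and 23 were not. Split summits were joined to 1 peak, which kept the highest −log10 p, and 0 peaks ran past a GRCm38 chromosome end.

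Lists were cut to 20000 peaks by −log10 p. Promoters used 93513 start sites of 21938 protein-coding genes (GENCODE M21). Rank scores were fitted with limma 3.58.1 in R 4.3.3 (trend and robust, HSC against BMDM, no covariate) over features held by at least 3 lists, with Benjamini-Hochberg adjustment and a call under 0.05. Occupancy was tested with Fisher's exact test over features held by 5 to 7 lists. The 4 library measures were tested by exact permutation, two-sided (smallest p 0.00216), and adjusted over the 4. Other work used Python 3.11.15, numpy 2.4.6, pandas 2.3.3 and scipy 1.17.1, and all tests were tried on simulated data. From each of 19 gene lists, up to 4 called members per direction with the largest difference and up to 2 not called were named. Besides these, the 8 promoters and 8 distal regions per direction with the largest difference among those called by both tests and held by all lists of one cell type and none of the other were named. The members, lists and tests were chosen with earlier results of these data known. Of 30 macrophage surface symbols 29 matched. Sequences are from RefSeq's GRCm38 genome.

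Alternatives were other list lengths, the order by fold, overlap, window sizes, filters, the score scale, a replicate block, a list length covariate, permutation, centring, and leaving out libraries. Results for some named genes are not reported here.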

Additional observations from a re-analysis of the deposited data

Results flagged for a closer look

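In the groups of 6 libraries, 3 values lay beyond Dixon's critical value for the distance of an extreme from its neighbour, relative to the spread from lowest to highest. Chance alone gives such a value in about 1 of 20 groups, and no explanation was tested. HSC library 5 had the fewest peaks of the HSC libraries, 100045, and its distance was 0.648 of the spread. For the Csf1r promoter, HSC library 2 had a rank score of 0.29 while the other 5 HSC libraries were at 0. With 5 libraries tied at 0 any other value lies beyond the limit, so this one carries no information and the rate of chance does not apply to it. BMDM library 1 had a Csf1r score of 3.06, at a distance of 0.651 of the spread of the BMDM libraries.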

How the results depend on the processing

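The count of promoters called by rank was 2103, and 1236 with lists cut to 10000, 581 ordered by fold and 1292 by exact permutation. Leaving out 1 library gave 1653 to 2129. By occupancy it was 98, and 401 with lists cut to 10000, 0 with lists as deposited (163 at an unadjusted p under 0.05) and 0 without BMDM libraries 5 and 6 (491 unadjusted), where 6 against 4 libraries were left. Leaving out 1 library gave 106 to 134. For distal regions, 1183 were called by rank, and 29 with lists cut to 10000, 3492 cut to 40000, 4218 as deposited, 17 ordered by fold, 706 held in at least 1 list and 2001 on a linear scale. Leaving out 1 library gave 854 to 1461. By occupancy 1274 were called, and 245 with lists cut to 10000, 834 cut to 40000, 0 as deposited (5854 unadjusted), 221 ordered by fold, 821 with windows of 500 and 5000 bp and 0 without BMDM libraries 5 and 6 (2017 unadjusted). Leaving out 1 library gave 1437 to 1670. Fewer features are tested in shorter lists (1603 distal regions with lists cut to 10000), and for the other changes the cause was not tested.

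None of the 4 library measures passed the test after adjustment under any alternative, and 3 changed sign around 0. The distal share of the cut list, HSC minus BMDM, −2.80 percentage points, was −4.82 with lists cut to 10000 (exact permutation p = 0.0130, adjusted p = 0.0519) and −0.66 with lists cut to 40000. On the log2 scale, peak number differed by −0.014 without BMDM libraries 5 and 6 and by −0.009 (without BMDM library 5) to 0.319 with 1 library left out. In covered length the difference was −0.214 without BMDM libraries 5 and 6, −0.181 (without BMDM library 5) to 0.163 with 1 library left out, −0.006 and −0.075 without HSC library 6 or BMDM library 4, and −0.030 with peaks of −log10 q of at least 5. The median width of the cut list differed by −0.022 without BMDM libraries 5 and 6 and −0.061 with lists cut to 40000.

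With the replicate number as a block, 1963 promoters and 1369 distal regions were called by rank, against 2103 and 1183 without it. Deviations of same-numbered libraries correlated at over 0.1 for 1 of 6 numbers at promoters and 0 of 6 at distal regions. With so few pairs and no label for mouse or batch, this cannot tell whether same-numbered libraries share an origin. Of the 63 called promoters that are named, none changed sign under any alternative, and 38 lost the call under at least 1. The 16 named distal regions kept their sign, and 14 lost the call under at least 1. Of 37 named promoters not called, 3 changed sign: Cxcr4 (−0.08 without BMDM libraries 5 and 6), H2-Ab1 (−0.06 with an overlap of at least 0.5 of the peak or the window and with 500 bp windows) and Tal1 (−0.27 without HSC library 5, the lowest of −0.27 to 0.73 with 1 library left out).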

Other observations

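The promoters with the largest rank score differences of all were outside the gene lists and are named after their values were seen. Higher in BMDM, Cd83, a surface protein of activated antigen-presenting cells, ranked 4 to 3374 in BMDM and 7215 to 19809 in HSC (difference −5.20, adjusted p from limma = 0.0452). Relb, an NF-kB subunit, ranked 7 to 860 in BMDM and 1136 to 5733 in HSC (difference −4.78, adjusted p from limma = 0.00178). For Cd83 and Relb, values without BMDM libraries 5 and 6, which went against their label, are not given here.

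Higher in HSC, Btg3, an antiproliferative gene, ranked 40 to 1083 in HSC and 5637 to 14540 in BMDM (difference 4.44, adjusted p from limma = 9.14e-05). Tardbp, which encodes an RNA-binding protein, ranked 2 to 136 in HSC and 159 to 1753 in BMDM (difference 4.38, called by limma). Hbp1, a transcriptional repressor, ranked 2 to 84 in HSC and 149 to 1688 in BMDM (difference 4.36, adjusted p from limma = 0.0120). In all 5 genes the groups did not overlap.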
